A study of Homo sapiens with 12 samples.

Results

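Histone H3.1 and histone H3.3 were compared in untreated mammary epithelial cells, as the 2 lists of regions that chromatin immunoprecipitation with sequencing (ChIP-seq) called for them. Members were all regions of these 2 lists on chromosomes 1 to 22 and X, and the protein-coding genes with a region in the gene or at most 2 kb outside it. The lists held 44966 H3.1 regions and 9839 H3.3 regions, 54805 of the 161322 regions in all 6 lists of the study. Per the file headers, about 4.74% of H3.1 ChIP tags and 1.3% of H3.3 ChIP tags lay in called regions. The part of this unequal enrichment in the list lengths was not tested. A region or gene was placed as H3.1 only, H3.3 only or both, with regions counted as both when they overlapped by 1 bp or more. The cells were the line MCF10AER/vSrc with genotype WT, derived from the non-tumorigenic human mammary line MCF10A and carrying an inducible v-Src fusion, which all groups shared. The study also collected cells 4 h and 24 h after D-alanine, labelled 10 nM. The design text names the first target as H3.1/H3.2, so H3.1 stands for both below. Each histone had 1 ChIP library and 1 input library in these cells, so all values describe these libraries, and intervals cover counting error only. RNA was not measured here, so the mammary identity of the cells could not be checked against marker genes.

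H3.1 is made mainly in S phase and is placed on DNA behind the replication fork by the chaperone CAF-1. H3.3 differs from it by a few amino acids, is made throughout the cell cycle, and is placed outside replication by HIRA and by the DAXX and ATRX complex. H3.3 is known to gather at active promoters, gene bodies, enhancers and telomeric repeats, where nucleosomes turn over.

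Around transcription start sites the 2 lists differed in place and in sequence. H3.3 regions gathered just downstream of start sites. The start windows they covered were close to all start windows in median CpG number, with fewer CpG-poor windows among them. H3.1 regions showed little gathering there, and the start windows they covered were mostly poor in CpG. A start window is the 300 bp from 250 before to 50 after a RefSeq transcription start of a protein-coding gene. There were 22131 windows of 15811 genes. H3.1 regions touched 571 of them (2.58%) and H3.3 regions 325 (1.47%), with 14 windows touched by both, 557 by H3.1 alone and 311 by H3.3 alone. The order of these counts turned when the H3.1 list was cut by score to the length of the whole H3.3 list, with 126 windows for H3.1 and 325 for H3.3.

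The 250 bases before the start site are shown for genes whose start window lay wholly inside a called region, 3 for H3.1 alone, 3 for H3.3 alone and 1 for both. They are the best by the lower limit of the region's fold, and were chosen after their values were seen. Each is written 5′ to 3′ on the gene's strand from RefSeq sequence of GRCh38.p14, with CpG dinucleotides in capitals. GON4L (chr1:155859432-155859681, minus strand), LYPD8 (chr1:248755760-248756009, minus strand) and SPMIP6 (chr9:34397811-34398060, minus strand) were covered by H3.1 alone. TTLL10 (chr1:1179431-1179680, plus strand), ZNF492 (chr19:22634074-22634323, plus strand) and FBLN2 (chr3:13568490-13568739, plus strand) were covered by H3.3 alone. ABR (chr17:1126573-1126822, minus strand) was covered by both.
GON4L: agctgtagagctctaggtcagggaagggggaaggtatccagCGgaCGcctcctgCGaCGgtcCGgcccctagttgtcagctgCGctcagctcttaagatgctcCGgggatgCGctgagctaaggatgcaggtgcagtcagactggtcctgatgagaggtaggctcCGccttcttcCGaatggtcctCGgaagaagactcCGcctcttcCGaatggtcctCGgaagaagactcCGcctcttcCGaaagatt
LYPD8: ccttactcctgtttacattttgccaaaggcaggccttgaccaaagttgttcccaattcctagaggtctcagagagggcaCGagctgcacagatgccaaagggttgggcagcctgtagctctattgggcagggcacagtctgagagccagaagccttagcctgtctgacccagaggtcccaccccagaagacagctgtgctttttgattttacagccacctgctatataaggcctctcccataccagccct
SPMIP6: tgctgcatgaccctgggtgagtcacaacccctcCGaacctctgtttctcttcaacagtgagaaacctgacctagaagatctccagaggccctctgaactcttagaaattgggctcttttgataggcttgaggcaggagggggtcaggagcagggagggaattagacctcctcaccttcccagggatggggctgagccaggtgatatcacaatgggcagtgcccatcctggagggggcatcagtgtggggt
TTLL10: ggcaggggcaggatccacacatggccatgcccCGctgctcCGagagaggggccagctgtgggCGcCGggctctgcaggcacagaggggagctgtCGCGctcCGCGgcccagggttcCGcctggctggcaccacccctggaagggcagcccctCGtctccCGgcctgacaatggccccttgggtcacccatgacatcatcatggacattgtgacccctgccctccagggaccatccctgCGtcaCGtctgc
ZNF492: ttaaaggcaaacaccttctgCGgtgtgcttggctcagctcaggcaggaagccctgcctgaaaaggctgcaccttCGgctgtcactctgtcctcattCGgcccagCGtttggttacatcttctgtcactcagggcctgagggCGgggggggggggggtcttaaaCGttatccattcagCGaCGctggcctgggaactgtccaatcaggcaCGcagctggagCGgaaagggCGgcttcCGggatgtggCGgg
FBLN2: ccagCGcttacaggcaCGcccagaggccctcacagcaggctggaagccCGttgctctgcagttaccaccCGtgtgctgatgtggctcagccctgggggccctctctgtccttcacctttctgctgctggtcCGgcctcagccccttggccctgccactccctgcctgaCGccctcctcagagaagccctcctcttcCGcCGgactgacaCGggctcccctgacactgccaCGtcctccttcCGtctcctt
ABR: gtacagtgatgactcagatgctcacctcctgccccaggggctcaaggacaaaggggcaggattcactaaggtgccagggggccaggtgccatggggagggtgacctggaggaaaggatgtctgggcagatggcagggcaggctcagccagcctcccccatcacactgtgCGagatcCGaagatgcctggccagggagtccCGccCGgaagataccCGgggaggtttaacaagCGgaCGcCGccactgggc

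LYPD8 and SPMIP6 each held 1 CpG in these bases, GON4L 16, TTLL10 and ZNF492 13 each, FBLN2 11 and ABR 8. GON4L thus held more than any of the 3 genes covered by H3.3 alone, so these examples overlap in CpG number although the classes differ. The H3.1 region over the GON4L start had 22 ChIP tags against 0 input tags, and that over the SPMIP6 start 19 against 0. The LYPD8 region had 46 ChIP tags against 3 input tags, a fold over input of 13 at equal depth (exact 95% interval 4.18 to 65.3). The H3.3 region over the TTLL10 start, a tubulin tyrosine ligase-like gene, had 57 tags against 7 (fold 7.54, 3.43 to 19.6). That over the start of ZNF492, a zinc finger gene, had 21 against 1 (fold 19.4, 3.13 to 804). That over FBLN2, which encodes the extracellular matrix protein fibulin 2, had 70 against 13 (fold 4.98, 2.73 to 9.82). At ABR, a regulator of small GTPases, H3.3 had 53 against 8 (fold 6.13, 2.90 to 14.9) and H3.1 had 20 against 4 (fold 4.24, 1.42 to 17.0).

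The same contrast stood over all windows of each class. The median window held 7 CpG for the 571 windows with H3.1, 23 for the 325 with H3.3 and 21 for all 22131 windows. Median GC content was 57.3%, 66.7% and 62.3% in the same order. At least 20 CpG were found in 14.2% of windows with H3.1 (95% interval 11.4% to 17.3%) and in 56.3% of those with H3.3 (50.7% to 61.8%), against 52.9% of all windows. By median CpG number and by this share, H3.3 windows were close to all start windows, and H3.1 windows stood apart. By median GC content both stood apart, H3.3 windows above all windows and H3.1 windows below. At the CpG-poor end both differed from all windows. At most 5 CpG were found in 38.4% of windows with H3.1, 5.85% of those with H3.3 and 21.4% of all windows. From the lowest to the highest CpG quintile of windows, H3.1 was called at 4.54%, 5.78%, 1.72%, 0.497% and 0.362%. H3.3 was called at 0.384%, 1.94%, 1.81%, 1.69% and 1.51%. H3.3 was thus least frequent in the lowest quintile and nearly level over the other 4, while H3.1 was most frequent in the 2 lowest.

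**Figure D1:**
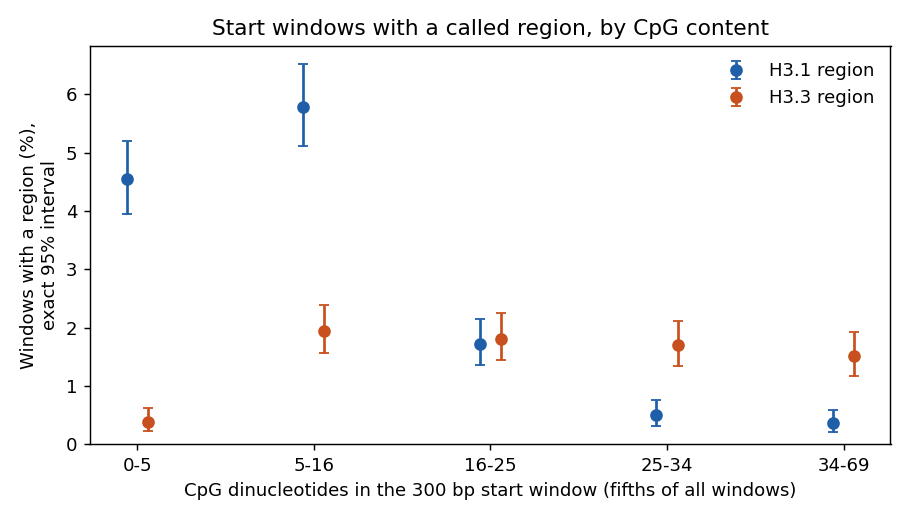
Share of start windows (y axis, %) with an H3.1 (blue) or H3.3 (orange) region, by quintile of CpG number in the 300 bp window (x axis), with bars for exact 95% intervals of counting error. H3.1 falls from 5.78% in the second quintile to 0.362% in the last, while H3.3 stays between 1.51% and 1.94% above the lowest quintile.

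Short promoter motifs were counted on both strands of the 300 bp windows. The GC box letters GGGCGG were present in 32.7% of windows with H3.1, 61.5% of those with H3.3 and 56.3% of all windows. The TATA box letters TATAAA were present in 11%, 5.54% and 9.46%. The CCAAT box letters CCAAT were present in 35.0%, 29.8% and 34.6%. The GC box letters themselves contain a CpG. Input tags also differed between these windows. H3.1 regions on start windows held 2.80 input tags on average, and H3.3 regions 5.30. The part of input level in the CpG contrast was not tested.

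By distance, 583 of 42891 H3.1 regions (1.36%, 95% interval 1.25% to 1.47%) had their centre 0 to 1 kb downstream of the nearest start site. For H3.3 they numbered 410 of 9497 (4.32%, 3.92% to 4.75%). Chromosome 8 was left out of all values on start sites. Genes elsewhere without a start window were left out too, as 15811 of 19970 protein-coding genes had one. The densest 250 bp for H3.3 lay 250 to 500 bp downstream, with 136 regions or 14.3 per 1000 regions of the list. H3.1 had 123 regions there, or 2.87 per 1000. From 1 to 2 kb upstream the lists were alike, with 1.03% of H3.1 and 1.07% of H3.3 regions. H3.3 regions 250 to 500 bp downstream held a median of 14 normalised tags (per 10000000 tags of the library), against 11.2 in the whole H3.3 list. H3.1 regions there held 9.65, against 9.11 in the whole H3.1 list. Mean input there was 5.36 tags for H3.3, against 4.49 in its list, and 2.67 for H3.1, against 2.56. Median fold there was 4.735 for H3.3, against 4.63 in its list, and 5.93 for H3.1, against 6.21. Among regions with 3 to 5 input tags alone, the shares 0 to 1 kb downstream were 1.68% for H3.1 and 4.21% for H3.3, a comparison chosen after seeing the data.

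**Figure D2:**
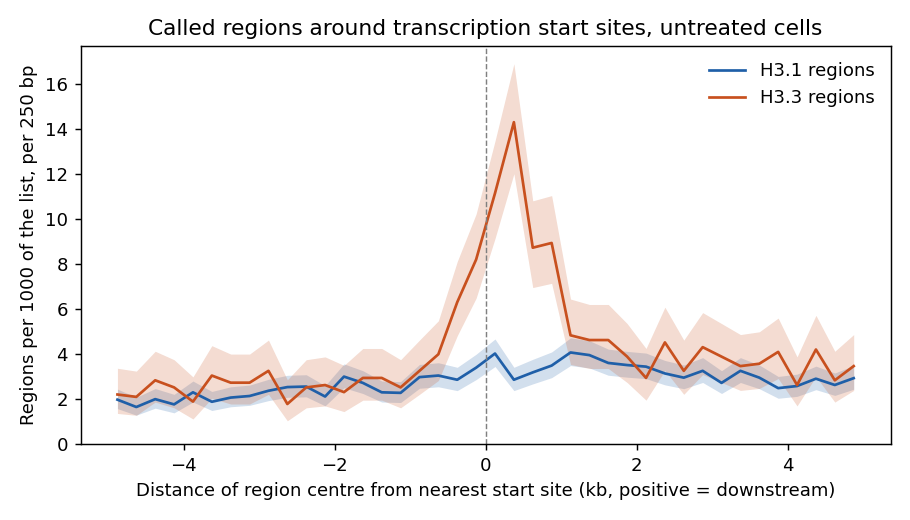
Number of region centres per 1000 regions of each list (y axis) in 250 bp steps of distance from the nearest start site (x axis, kb, positive downstream), with shaded exact 95% intervals of counting error. H3.3 (orange) peaks at 14.3 per 1000 between 250 and 500 bp downstream, where H3.1 (blue) stands at 2.87.

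Along genes the lists differed more at the 5′ end than at the 3′ end. Values for each end apart and for deciles of the body used only genes with a start window. Within 1 kb of the 5′ end of a gene lay 1.99% of H3.1 and 5.29% of H3.3 regions, and within 1 kb of the 3′ end 2.79% and 3.46%. In gene bodies of at least 10 kb, the first decile of the body held 8.17% of H3.1 and 12.1% of H3.3 placements. The second decile held 8.22% and 7.57%, and the last 14.9% and 15.5%. Both histones were thus placed more often toward the 3′ end of bodies, and H3.3 also in the first decile. Counting both ends together, 11.7% of H3.1 regions (95% interval 11.4% to 12%) and 18.5% of H3.3 regions (17.7% to 19.3%) lay within 2 kb of a gene end. Inside a gene body lay 57.4% and 61.3%, and over 50 kb from any protein-coding gene 18.1% and 14.8%.

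Few regions of either list shared bases with the other. Overlap with the other list was found for 680 H3.1 regions (1.51% of that list, 95% interval 1.40% to 1.63%) and 683 H3.3 regions (6.94%, 6.45% to 7.46%). These made 684 overlapping pairs, leaving 44286 regions called for H3.1 only and 9156 for H3.3 only. H3.1 regions covered 27.8 Mb, 0.917% of these chromosomes, and H3.3 regions 5.41 Mb, 0.179%. The overlap was often partial, with a median of 220 bp, and reached 50% of the shorter region in 294 pairs. H3.3 regions nevertheless lay near H3.1 regions, with a median distance of 6.71 kb and 45.9% within 5 kb. The median H3.1 region lay 49.4 kb from an H3.3 region, as the H3.3 list was much shorter. Another H3.1 region lay within 5 kb of 48.0% of H3.1 regions, and another H3.3 region within 5 kb of 21.4% of H3.3 regions. A region missing from a list was not called, and no value of that histone was deposited there.

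The called regions themselves differed in input. The mean H3.1 region had 2.56 input tags and the mean H3.3 region 4.49. Regions with 0 input tags made up 8.21% of the H3.1 list and 0.559% of the H3.3 list. H3.1 regions had a higher median fold (6.21 against 4.63) with fewer normalised tags (9.11 against 11.2). H3.1 regions over 1 kb wide made up 6.61% of the list, and H3.3 regions 1.52%. A width of exactly 500 bp, the peak size in the file headers, was held by 67.1% of H3.1 and 80.2% of H3.3 regions. Shared H3.1 regions held more input, 3.50 tags on average, than H3.1 regions outside the overlap, 2.54. The part of input in which list called a region was not tested.

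In overlapping pairs, both histones had a called level, each taken over its own whole region and not over the shared bases. Per kb of region, H3.1 levels ranged from 10.2 to 38.6 normalised tags with a median of 18.2, and H3.3 levels from 9.94 to 68.2 with a median of 22.4. The H3.1 level was the higher in 196 of 684 pairs. The median ratio of H3.1 to H3.3 was 0.822, with quartiles 0.628 and 1.04. In 0 pairs did H3.1 exceed H3.3 by more than 2 times, and in 70 pairs H3.3 exceeded H3.1 by more than 2 times. Shared H3.1 regions were over 1 kb wide in 10.9% and shared H3.3 regions in 1.76%, and levels per kb come from different antibodies. By fold over input the order was the other way, with a median of 5.08 in shared H3.1 regions and 4.63 in shared H3.3 regions. A gene body lay under 455 pairs, 23 lay within 2 kb outside one, and 206 at neither.

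**Figure D3:**
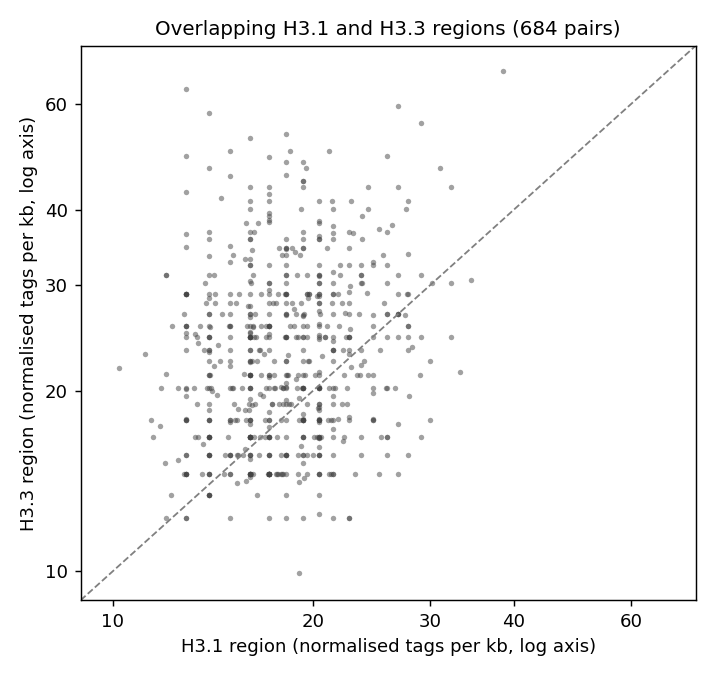
Normalised tags per kb in the H3.1 region (x axis) and the H3.3 region (y axis) of each of the 684 overlapping pairs, both on log axes, 1 point a pair, with a dashed line of equal levels. Most points lie above the line, and 196 lie below it.

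The pairs with the highest smaller lower limit of fold lay at DGKZ, GNA11, HMCN2, LHPP and SHF, and between genes near LY6D and WDR5. At GNA11, a G protein alpha subunit, the H3.3 region (chr19:3111665-3112743) spanned the whole 500 bp H3.1 region. It had 74 tags against 14 input tags (fold 4.89, 2.74 to 9.38), and the H3.1 region 19 against 0. At DGKZ, a diacylglycerol kinase, the regions overlapped by 41 bp, with 66 against 10 tags for H3.1 (fold 5.59, 2.86 to 12.2) and 60 against 10 for H3.3 (fold 5.55, 2.82 to 12.2). HMCN2, a hemicentin of the extracellular matrix, held 1 H3.3 region that met 2 H3.1 regions, one at each side. At LHPP, a phosphatase gene, 361 bp were shared, with 19 against 1 tags for H3.1 and 31 against 4 for H3.3. At SHF, an adaptor protein gene, the H3.3 region was centred 457 bp downstream of a start site.

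By gene, the lists met far more often than by base. Of 19970 protein-coding genes, H3.1 was called at 8850 (44.3%) and H3.3 at 4245 (21.3%). Both were held by 3055 genes (15.3%), H3.1 only by 5795 (29%), H3.3 only by 1190 (5.96%) and neither by 9930. Genes with both were 34.5% of genes with H3.1 and 72% of genes with H3.3. H3.1 was found in 36.9% of genes without H3.3. Genes with both were long, with a median of 48.6 kb, against 28.6 kb for H3.1 only, 21.1 kb for H3.3 only and 17.7 kb for neither. Within length quintiles H3.1 stayed more frequent in genes with H3.3 than without, at 40.8% against 23.9% in the shortest quintile and 78.0% against 50.3% in the longest. Within a gene with both, the regions overlapped in 443 genes, and the median smallest gap was 2.15 kb. The gap was 10 kb or more in 675 of these genes.

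The size of the gene classes depended on list length. The H3.1 list was cut to its 9839 regions of highest score, the length of the whole H3.3 list, which stayed uncut. Then 3521 genes (17.6%) held H3.1 and 4245 (21.3%) held H3.3. The classes were then 1904 for H3.1 only, 1617 for both and 2628 for H3.3 only, so the order of the 2 single classes turned.

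Genes with H3.1 only, ranked by the lower limit of the fold interval of their best region, were led by genes that included BICD2, MTSS1, CTIF, ERICH6B, TMEM132B, GALNT18 and UCP3. Their best regions were 780 to 1527 bp wide, and 6 of these 7 had 0 input tags. For such regions a floor fold is given, as if they had 3 input tags. It is not a lower bound, as the exact lower limit can be smaller. It cannot be set against the fold of regions with 1 or more input tags. BICD2, an adaptor of the dynein motor, had 6 H3.1 regions. The best (chr9:92724838-92726107) had 44 tags against 0 (floor fold 12.4, lower limit 9.69). GALNT18, of a family that starts mucin-type O-glycosylation, had 13, the best (chr11:11302355-11303882) with 45 against 1 (fold 38.1, 6.50 to 1539). UCP3, a mitochondrial uncoupling protein, had 4, and its best region (30 tags against 0) was centred 446 bp downstream of a start site. MTSS1, which links membranes to actin, had 9 regions and CTIF, a translation initiation factor bound to the cap-binding complex, had 36, each with a best region of 33 tags against 0. ERICH6B had 3 regions and TMEM132B 18, with 32 and 31 tags against 0. None of these genes held an H3.3 region.

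Genes with H3.3 only were led by genes that included SOWAHA, TTLL10, SLC9B1, HELZ2, CTSD, CBARP and STK11, with 1 to 4 H3.3 regions each. SOWAHA had 1 region (chr5:132814401-132814901) with 19 tags against 0 (floor fold 5.86, lower limit 4.32), centred 1349 bp downstream of its start. SLC9B1, of the sodium and proton exchanger family, had 1 with 15 against 0 (floor fold 4.63, lower limit 3.32). HELZ2, a helicase and nuclear receptor coactivator, had 4, the best (chr20:63564327-63566286) the widest of these at 1959 bp with 107 against 19 (fold 5.21, 3.18 to 8.99). CTSD, the lysosomal protease cathepsin D, had 3, the best with 38 against 4 (fold 8.79, 3.17 to 33.9) in the 2 kb outside its body and also near IFITM10. CBARP, a regulator of voltage-gated calcium channels, and STK11, the kinase LKB1, shared 1 best region (chr19:1227758-1228404) with 62 against 9 (fold 6.38, 3.15 to 14.6). These regions had more input tags than the leading H3.1 regions, 0 to 19 against 0 to 1.

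Genes with both were ranked by the weaker of their 2 best regions and led by ADPRHL1, TP53I11, PKD1L1, OCA2, GRID2IP, RAB36, RSPH14 and MYO7A. ADPRHL1, an ADP-ribosylhydrolase-like gene, had 6 H3.1 and 4 H3.3 regions, the best with 28 and 17 tags, both against 0. TP53I11, a p53-inducible gene, had 5 and 1. Its best H3.1 region had 36 against 1 (fold 30.5, 5.14 to 1238), its H3.3 region 21 against 0, and 1395 bp lay between the nearest regions. PKD1L1, of the polycystin family, had 23 and 1, and OCA2, a melanosome transport protein, 20 and 6. GRID2IP, a postsynaptic scaffold, had 7 and 1. RAB36 and RSPH14 overlap each other and shared both best regions. MYO7A, a myosin of inner ear hair cells, had 17 and 3, and 1 of these pairs overlapped by 500 bp. At none of the 8 genes did the best H3.1 region overlap an H3.3 region.

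The genes with most regions were long, and held many of both. H3.1 regions were most numerous at PTPRN2 with 106, RBFOX3 with 98, TRAPPC9 with 93, DLGAP2 with 88 and CAMTA1 with 83. H3.3 regions at these genes numbered 24, 25, 5, 12 and 12. H3.3 regions were most numerous at PRDM16 with 40, RBFOX3 with 25, PTPRN2 with 24, and CDH4 and GSE1 with 22 each. H3.1 regions at PRDM16, CDH4 and GSE1 numbered 65, 75 and 50. PTPRN2 encodes a receptor-type phosphatase-like protein of secretory vesicles, RBFOX3 a neuronal splicing factor, PRDM16 a transcription factor of brown fat and CDH4 a cadherin. These 8 genes were 369 to 1049 kb long.

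Gene lists differed widely, and lists of long genes held both histones often. Beside each count stands the share of all protein-coding genes, 44.3% for H3.1 and 21.3% for H3.3, with a median length of 24.2 kb. Of 77 neuronal synapse and channel genes (median 165 kb), 65 held H3.1 (84.4%) and 48 held H3.3 (62.3%, 95% interval 50.6% to 73.1%). Among them CACNA1H, a T-type calcium channel, had 7 H3.1 and 13 H3.3 regions, and the adhesion gene SDK1 had 72 and 2. Of 44 collagen genes (median 145 kb), 35 held H3.1 and 23 held H3.3 (52.3%). COL18A1 had 6 and 7 regions, and COL23A1 48 and 4. Of 53 clustered protocadherin genes, 38 held H3.1 and 33 held H3.3, but these genes overlap, and the best H3.1 region of the gamma cluster (65 tags against 6) counted for 22 of them. H3.3 regions there were also shared between genes. With a fold of at least 6, 22 protocadherin genes held H3.1 and 1 held H3.3, where 30.7% and 5.37% of all genes did.

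Homeobox and developmental regulators were short, with a median of 6.6 kb, and yet 45 of 104 held an H3.3 region (43.3%, 33.6% to 53.3%), and 56 held H3.1 (53.8%). Both were held by 32, H3.1 only by 24 and H3.3 only by 13. NKX2-2, a homeobox factor of neural and pancreatic precursors, had 4 H3.3 and 2 H3.1 regions. Its best H3.3 region (chr20:21513369-21513869) was centred 659 bp upstream of a start site, with 36 tags against 3 (fold 11.1, 3.51 to 56.4). GATA5, a factor of endoderm and heart, had an H3.3 region of 78 against 13 (fold 5.55, 3.07 to 10.9), and PAX8 one of 36 against 4 (fold 8.33, 2.99 to 32.2). EMX1, a factor of the developing cortex, had 2 H3.3 and 3 H3.1 regions. PAX5, which sets B cell identity, had 22 H3.1 and 0 H3.3 regions, and LHX4 9 and 0. The HOX cluster genes, also short (median 3.79 kb), held fewer, 15 of 39 with H3.1 (38.5%) and 4 with H3.3 (10.3%, 2.87% to 24.2%).

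Basal mammary genes were near all genes in H3.1 and low in H3.3. Of 37 basal mammary epithelial genes, 18 held H3.1 (48.6%) and 1 held H3.3 (2.70%, 0.0684% to 14.2%). That 1 gene was ITGB4, an integrin of hemidesmosomes, with 30 tags against 5 (fold 5.55, 2.13 to 18.3) and 3 H3.1 regions. PKP1, a desmosome plaque protein, had 10 H3.1 regions, the best with 46 against 3 (fold 13, 4.18 to 65.3). EGFR, the epidermal growth factor receptor, had 29, COL17A1, a hemidesmosome collagen, 2, and MYLK, the myosin light chain kinase, 7, all with 0 H3.3 regions. With the lists held to equal length, 6 basal genes held H3.1 and 1 held H3.3, where 17.6% and 21.3% of all genes did. Of 37 luminal genes, 21 held H3.1 (56.8%) and 7 held H3.3 (18.9%). FOXA1, the luminal pioneer factor, had 2 H3.3 regions and 0 H3.1 regions, the best centred 293 bp downstream of its start with 32 against 6 (fold 4.94, 2.04 to 14.4). PGR, the progesterone receptor, had 0 H3.3 regions and 1 H3.1 region 208 bp downstream of its start, with 15 tags against 0. The intervals of the basal and luminal H3.3 shares overlap (7.96% to 35.2% for luminal). Of 40 mesenchymal genes 24 held H3.1 (60%) and 12 held H3.3 (30%), among them PRRX1, a mesenchymal homeobox factor, with an H3.3 region alone 179 bp downstream of its start.

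Replication-dependent histone and ribosomal protein genes held few regions of either histone, and both lists are of short genes. Of 69 replication-dependent histone genes (median 0.494 kb), 5 held H3.1 and 0 held H3.3, with an exact upper limit of 5.21%. H3C7 and H2BC9 shared 1 H3.1 region with 14 tags against 0. Of 85 cytosolic ribosomal protein genes (median 5.04 kb), 16 held H3.1 (18.8%) and 2 held H3.3 (2.35%, 0.286% to 8.24%), at RPS19 and RPL3. In the shortest length quintile of all genes, H3.1 was called at 25.9% and H3.3 at 12.1%. Of 57 cell cycle and replication genes, 22 held H3.1 (38.6%) and 6 held H3.3 (10.5%, 3.96% to 21.5%). CDC45, a subunit of the replicative helicase, had 6 H3.1 regions, and MCM5, another subunit, also 6, both with 0 H3.3 regions. Of 43 H3 variant and chaperone genes, 14 held H3.1 (32.6%) and 7 held H3.3 (16.3%, 6.81% to 30.7%). Both intervals take in the 21.3% of all genes. HIRA, the H3.3 chaperone, had 5 H3.1 and 1 H3.3 regions, its best H3.1 region with 30 tags against 1 (fold 25.4, 4.23 to 1037). UBN1, a partner of HIRA, had 3 and 1, CABIN1, another, 19 and 2, and CHAF1A, the large subunit of CAF-1, 2 and 2.

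Among stress and signalling genes, 27 of 58 immediate-early and growth factor genes held H3.1 (46.6%) and 8 held H3.3 (13.8%). FOS, a subunit of AP-1, had 1 H3.3 region centred 1306 bp upstream of its start (48 tags against 10; fold 4.44, 2.22 to 9.85) and 0 H3.1 regions. ATF3, a stress-induced factor, had 6 H3.1 regions and 0 H3.3 regions, and its best, 4086 bp downstream of a start site, had 42 against 3 (fold 11.9, 3.79 to 59.8). Of 49 NRF2 and antioxidant genes, 21 held H3.1 (42.9%) and 11 held H3.3 (22.4%). GPX3, the plasma glutathione peroxidase, had 3 H3.1 regions and 0 H3.3 regions, and DAO, the D-amino acid oxidase gene, 2 and 0. OGG1, the 8-oxoguanine glycosylase, had 4 and 1, with the H3.3 region 329 bp downstream of a start site.

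Genes of muscle, liver and blood were at least as often called for H3.1 as all genes, and their intervals for H3.3 took in the share of all genes. Of 53 muscle and heart structural genes 33 held H3.1 (62.3%) and 15 held H3.3 (28.3%). Of 50 liver and plasma protein genes 29 (58.0%) and 10 (20.0%) did, and of 53 haematopoietic and endothelial genes 32 (60.4%) and 12 (22.6%). ERG, an endothelial ETS factor, had 2 H3.3 regions and 1 H3.1 region, with the best H3.3 region 391 bp downstream of a start site. Of 46 imprinted genes 26 held H3.1 (56.5%) and 11 held H3.3 (23.9%), and of 379 solute carrier genes 199 (52.5%) and 115 (30.3%). Of 48 cornified envelope genes (median 2.30 kb) 14 held H3.1 (29.2%, 17.0% to 44.1%) and 2 held H3.3 (4.17%, 0.509% to 14.3%), at PPL and CNFN. These intervals take in the 25.9% and 12.1% of the shortest length quintile of all genes. Of 392 olfactory receptor genes (median 2.94 kb) 29 held H3.1 (7.40%) and 5 held H3.3 (1.28%). Of 246 zinc finger genes of chromosome 19, 77 (31.3%) and 33 (13.4%) did. Long non-coding RNA genes, counted over the body alone, held H3.1 in 20.04% and H3.3 in 5.94% of 18177, against 40.04% and 19.1% of protein-coding bodies.

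**Figure D4:**
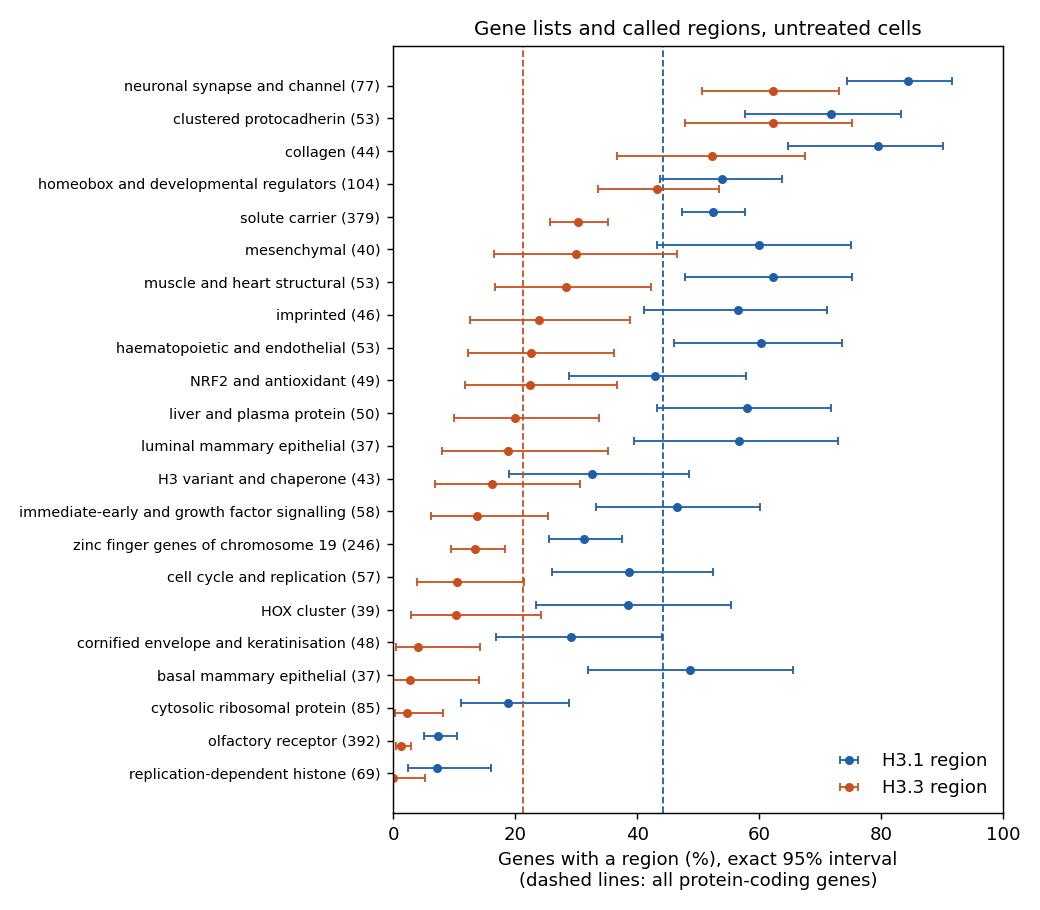
Share of genes with an H3.1 (blue) or H3.3 (orange) region (x axis, %) in each of 22 gene lists (y axis, number of placed genes in brackets), with exact 95% intervals of counting error and dashed lines for all protein-coding genes (44.3% and 21.3%). Whole H3.3 intervals lie to the right of the H3.3 line for the neuronal, protocadherin, collagen, homeobox and solute carrier lists, and to its left for the zinc finger, cornified envelope, basal mammary, ribosomal protein, olfactory receptor and histone lists. The lists differ in gene length, and protocadherin genes share regions, which the intervals do not allow for.

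Along chromosomes, H3.3 made up 18.0% of all called regions. The share was highest on chromosomes 4 (27.4%, 25.2% to 29.7%), 19 (25.8%, 24.2% to 27.4%) and X (25.3%, 22.9% to 27.9%). It was lowest on chromosomes 7 (12.2%, 11.2% to 13.3%), 1 (13.2%, 12.4% to 14%) and 5 (13.3%, 12.2% to 14.6%). Chromosome 19 had 12.3 H3.3 regions per Mb, against 3.25 over all chromosomes. H3.1 regions were densest on chromosomes 22 and 19, with 35.8 and 35.5 per Mb against 14.8 over all. Chromosomes 4 and X had few H3.1 regions, 5.84 and 5.74 per Mb, and also fewer H3.3 regions than average, 2.20 and 1.94. Mean input tags under H3.1 regions were 3.12 on chromosome 7, 2.88 on 1 and 2.75 on 5, against 2.41 on 4, 2.58 on 19, 2.15 on X and 2.56 over all. Among other chromosomes, 8 had input of 2.76 under H3.1 regions and an H3.3 share of 14.1% (12.8% to 15.6%). Chromosome 15 had 2.34 and 14.6% (12.9% to 16.3%), and chromosome 18 had 2.12 and 16.8% (14.5% to 19.4%). The interval of chromosome 18 takes in the 18.0% of all chromosomes. The part of input level in these shares was not tested.

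**Figure D5:**
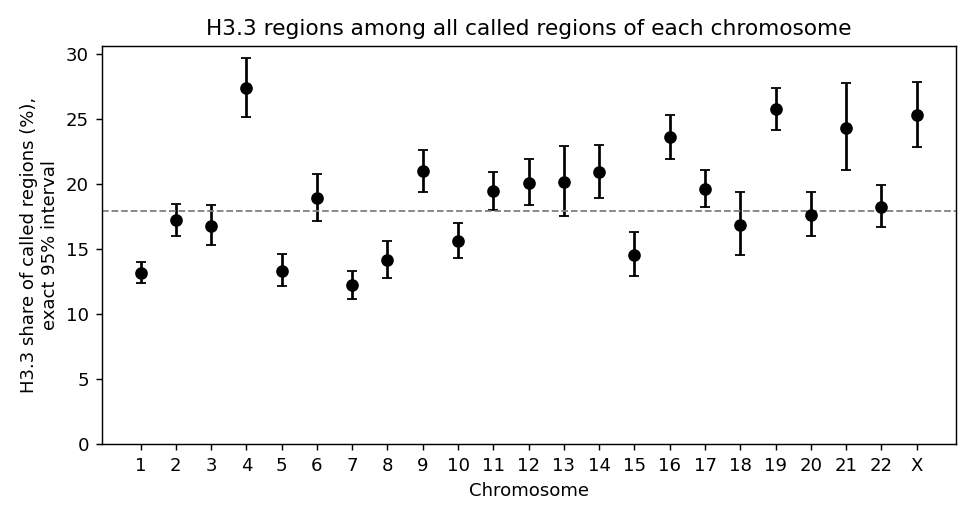
H3.3 regions as a share of all H3.1 and H3.3 regions (y axis, %) on each chromosome (x axis), with exact 95% intervals of counting error and a dashed line at 18.0% for all chromosomes. Chromosomes 4, 19 and X lie highest, and 7, 1 and 5 lowest.

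Regions of the untreated cells met the treated lists at shares that differed from list to list. H3.1 regions outside the overlap met an H3.3 region of the 24 h list in 34.0% (33.6% to 34.5%), and H3.3 regions outside the overlap did in 3.42% (3.06% to 3.81%). In the other 3 treated lists the order was the reverse. The shares were 0.677% and 2.29% for the H3.3 list of 4 h, 1.48% and 4.61% for the H3.1 list of 4 h, and 1.996% and 8.49% for the H3.1 list of 24 h. The treated lists differed in length, 81370 regions for H3.3 and 13611 for H3.1 at 24 h, and 3614 and 7922 at 4 h. At 24 h, regions of each untreated list outside the overlap met the other histone's list more often than their own histone's list. For H3.3 regions this was so although the H3.3 list of 24 h was the longer. At 4 h it was so for H3.3 regions and not for H3.1 regions. Regions called for 1 histone before treatment thus seldom recurred in its treated lists. The source of this was not tested, and it limits reading the untreated contrast as one between the histones.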

How the data were processed

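ChIP-seq libraries of H3.1 and H3.3 in untreated MCF10AER/vSrc cells, 1 per histone with 1 input each, were compared (18656173 and 17903759 ChIP tags, about 15800000 and 16600000 input tags). Per the submitters' processing notes, cutadapt 3.7, Bowtie2 2.4.1, HOMER 4.11.1 and hg38 were used. Per the file headers, the authors called regions in each library against its input, requiring a fold of 4 and a Poisson p-value of 1e-04. The deposited signal was tags per 10000000, the deposited fold a ratio of ChIP over input at equal depth, and the deposited score the caller's own.

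Whole ChIP tags were recovered in 100% of regions (tolerance 0.1). Fold intervals are exact conditional binomial and shares Clopper-Pearson, both at 95%. Regions were called on these same tags, and the intervals make no allowance for that. Genes and start sites came from RefSeq on GRCh38.p14. Start windows of chromosome 8 were not used here, and some protein-coding genes of other chromosomes had no start window. The 24 and 28 regions outside chromosomes 1 to 22 and X were left out. With 1 library per histone no test was made. Named genes were the 8 best per class, the 8 best shared regions, the 5 genes with most regions per list and up to 4 members per gene list, by the lower limit of the fold, and some of these are not reported here. Members and lists were chosen with earlier results of these data known. Scripts used Python 3.11.15, pandas 2.3.3 and scipy 1.17.1, and were tested on simulated data.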

Additional observations from a re-analysis of the deposited data

Results flagged for a closer look

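Regions on unplaced or unlocalised contigs were called in both lists and used in no comparison, 23 for H3.1 and 24 for H3.3, although the H3.3 list is much the shorter. One unlocalised contig of chromosome 14 held 10 of the H3.3 regions and 2 of the H3.1 regions. The 10 H3.3 regions had 6.70 to 26.8 normalised tags, 1 to 9 input tags and folds of 4.01 to 11.1.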

How the results depend on the processing

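Counts of regions and genes followed list length and threshold. With a fold of at least 6, regions for H3.1 only numbered 22779, for both 39 and for H3.3 only 1947, and genes with both 615 and with H3.3 only 457. With equal list length, regions for H3.1 only numbered 9589 and for both 250, and genes with H3.1 only 1904, with both 1617 and with H3.3 only 2628. Without chromosomes 1, 5, 7, 8 and 19, 28920 regions and 3795 genes were H3.1 only. Shared H3.1 regions numbered 294 when 50% of the shorter region had to overlap and 2072 when within 1 kb. With at least 2 regions per gene, 928 genes held both and 383 H3.3 only. The share of regions at a gene end was higher for H3.3 in all settings run: 10.9% for H3.1 and 14.3% for H3.3 with a fold of at least 6, 14.3% for H3.1 with equal list length, 4.51% and 8.09% with a 500 bp window, 21.9% and 30.7% with 5 kb, and 13.2% and 16.4% for regions with 3 to 5 input tags. The share 0 to 1 kb after a start site was 1.23% and 3.50% with a fold of at least 6, and 1.68% for H3.1 with 3 to 5 input tags. Start windows numbered 278 and 55 with a fold of at least 6, and 126 for H3.1 and 325 for H3.3 with equal list length. Of 132 gene list counts under other settings, 54 moved by over 1.5 times. Alternatives for start sites, gene lists and input tags were added after seeing the data. No paired analysis was possible because each histone had 1 library. Depth limits each region to few input tags.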
